A study of Mus musculus with 36 samples.

Results

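The expression of 4 CC chemokine genes, *Ccl2*, *Ccl7*, *Ccl20* and *Ccl5*, and of the fractalkine gene *Cx3cl1* was followed in mouse chondrocytes stimulated with the cytokine IL-1β. The genes were found by symbol, and each of the 5 matched 1 of the 53421 genes in the count table. The cells were a conditionally immortalised mouse line with a fibroblast-like form, described by the study as chondrocytes of wild-type origin, so the results describe 1 line and not cartilage. The cells were given either a pool of siRNA without a target (non-targeting, NT) or a pool directed at *Ift88* (IFT88siRNA), a gene that codes for a protein of the intraflagellar transport particle that builds the primary cilium. Cells of both siRNA groups were kept in medium only (0 h) or received IL-1β at 10 ng/ml for 1, 2, 4, 8 or 24 h. Each of the 12 conditions had 3 replicates, giving 36 libraries of poly(A) RNA, 18 per siRNA group. The labels do not say whether replicates came from separate cultures, so the p-values measure the spread between these libraries, which may be technical.

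Chemokines are small secreted proteins that guide leukocytes along a gradient by binding G-protein-coupled receptors on their surface. CC chemokines are named for a pair of adjacent cysteines and mostly attract monocytes, T cells and dendritic cells, whereas fractalkine is made as a membrane-anchored protein on a mucin-like stalk that can hold cells bearing its receptor and is released when metalloproteinases cut the stalk. In chondrocytes and synovial fibroblasts, IL-1β acts through its receptor, the adaptor MyD88 and NFκB, a pathway known for raising chemokine transcripts.

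The libraries held between 19337022 and 38304127 counts on genes. The median was 21672803.5 in NT and 25873754 in IFT88siRNA, so the IFT88siRNA libraries were on the whole deeper, and scaling was used to set the libraries on 1 footing. *Ift88*, the target of the siRNA, was lower in IFT88siRNA than in NT at every time point. Its normalised read count, in CPM (counts relative to library size) scaled with edgeR's TMM method, was 5.83 to 10.2 over the 18 NT libraries and 1.43 to 3.10 over the 18 IFT88siRNA libraries, and these ranges did not overlap. Its log2 fold change was between −2.12 ± 0.13 at 2 h and −1.47 ± 0.12 at 24 h (SE, 3 libraries against 3). The labelled cell type was weakly marked. The 6 chondrocyte markers examined summed to 15.8 to 58.3 TPM (a level relative to transcript length and library size), with *Acan* at no more than 16 counts and *Matn1* at no more than 16 counts in a library, whereas 7 fibroblast markers summed to 1592 to 4653 TPM. The 7 leukocyte markers summed to 7.18 to 15.1 TPM, with *Tyrobp* at 0 and *Ptprc* at no more than 5 counts in every library. The 4 endothelial markers summed to at most 1.78 TPM and the 4 epithelial markers to at most 9.38 TPM.

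All 5 genes rose with IL-1β. In NT, all 5 were higher than at 0 h by over 1.5-fold with an adjusted p-value under 0.05 at 1, 2, 4 and 8 h, and 4 of 5 were so at 24 h. Of all 16048 genes tested, 9.22% were higher by the same thresholds at 1 h, 13% at 2 h, 16.3% at 4 h, 11.8% at 8 h and 6.61% at 24 h. In IFT88siRNA, all 5 were higher at each of the 5 time points, where 6.82%, 12.4%, 16%, 10.5% and 6.36% of 16129 genes were. In that group *Ccl5* at 1 h (log2 change 0.62) and *Cx3cl1* at 24 h (0.61) lay close to the fold threshold, and they did not pass it without IFT88siRNA 1 h replicate 3 (0.55) and without IFT88siRNA 24 h replicate 1 (0.58). With limma on log2(TPM + 1) these changes were 0.39 and 0.51, and those of *Cx3cl1* at 8 h were 0.57 in NT and 0.50 in IFT88siRNA, so that these 4 were under the fold threshold while their adjusted p-values passed. The exception in NT was *Cx3cl1* at 24 h, with a log2 change of 0.53 ± 0.057 (adjusted p = 3.88e-08) that stayed under the 1.5-fold threshold. The 5 time points within a siRNA group are set against the same 3 libraries at 0 h, so these changes are not independent of each other. In bulk RNA, fewer cells that express a gene and less RNA per cell cannot be told apart. Some markers moved with IL-1β too. Of the 6 chondrocyte markers, *Prg4* (log2 change 2.095) and *Comp* (0.94) were higher at 4 h in NT, and *Matn1* (−1.80), *Acan* (−1.12) and *Col2a1* (−0.86) were lower. At the same time the leukocyte gene *Csf1r* (log2 change 3.74, at no more than 14 counts in a library), the epithelial genes *Cdh1* (3.20), *Krt8* (1.37) and *Krt18* (1.08), and the fibroblast genes *Pdgfra* (1.84), *Col3a1* (1.39) and *Thy1* (0.61) were higher, and the endothelial gene *Tek* was lower (−1.69). The summed leukocyte markers were at 11.1 to 15.1 TPM at 0 h and 9.80 to 11.1 TPM at 4 h, and the epithelial ones at 1.64 to 2.56 and 6.15 to 9.38 TPM. At 24 h in NT, 4 of the 7 fibroblast markers were lower than at 0 h and 1 was higher. The 7 had a median log2 change of −0.63. Of the 6 chondrocyte markers, 4 were lower and 1 was higher, with a median of −0.93. The median over all genes was −0.019. At 24 h 6.61% of all genes were higher, and the share that were lower is not given here, so the counts of lower markers have no matching share. The summed fibroblast markers were at 3221 to 3369 TPM at 0 h and 1592 to 1740 TPM at 24 h in NT, and the summed chondrocyte markers at 28.5 to 32.8 and 15.8 to 17.7 TPM. The part of these markers in the changes of the chemokine genes was not tested.

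The genes fell into unlike time courses. *Ccl2* had its highest CPM at 2 h in each of the 6 replicate series, and *Ccl7*, *Ccl20* and *Cx3cl1* had theirs at 4 h in each of the 6. *Ccl5* was highest at 8 h in all 3 NT series, and at 8, 4 and 24 h in the IFT88siRNA series numbered 1, 2 and 3. A series here joins libraries that share a replicate number, and the labels do not say that these belong together.

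**Figure D1:**
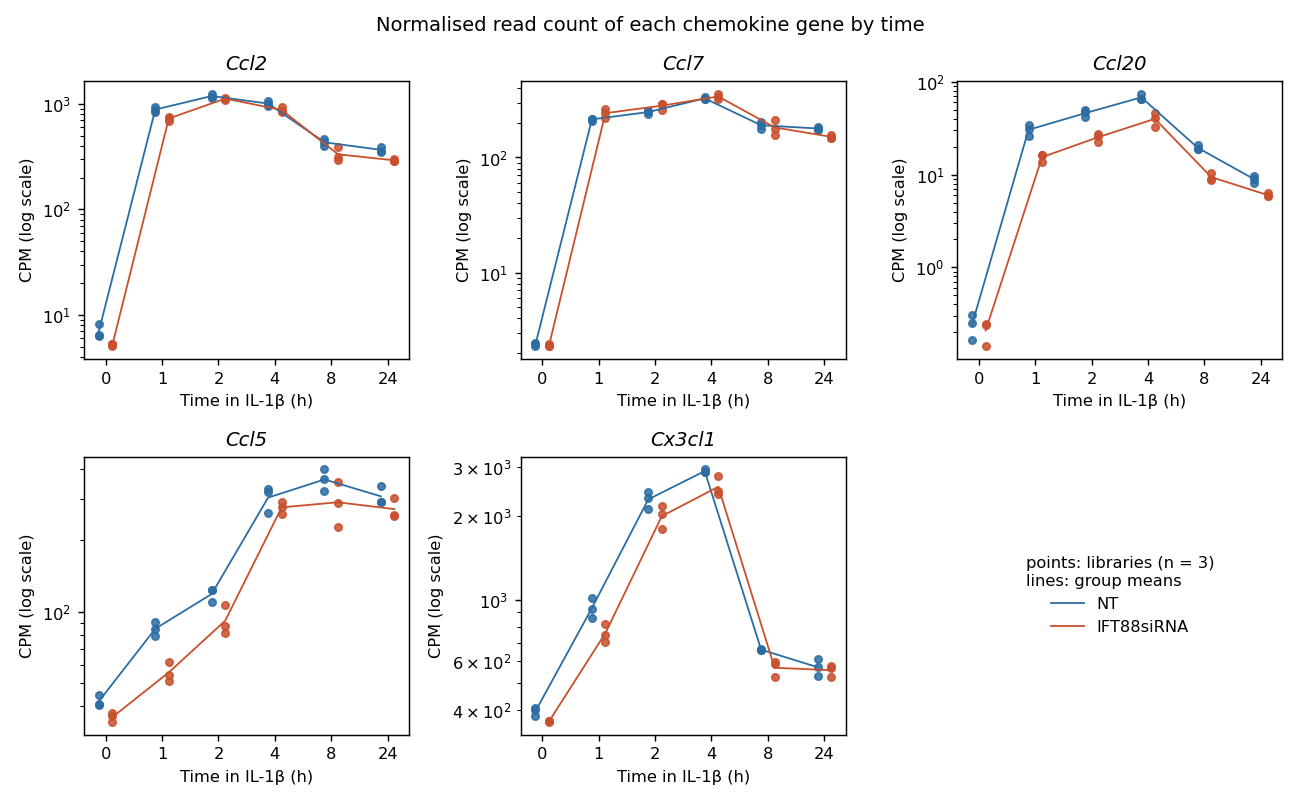
Normalised read count (CPM, log scale) of the 5 genes against time in IL-1β (h, evenly spaced, not to scale), with 1 point per library (3 per condition), lines through the group means, NT in blue and IFT88siRNA in orange. Ccl2, Ccl7 and Ccl20 start under 9 CPM and rise steeply by 1 h, Cx3cl1 starts between 362.5 and 409 CPM and peaks at 4 h, and Ccl5 climbs until 4 to 8 h and stays high.

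*Ccl2* codes for a monocyte chemoattractant that binds the receptor CCR2. The gene (ENSMUSG00000035385) has 3 exons on the forward strand at chr11:82035571-82037453 in GRCm38. It overlaps the annotated span of *Gm17268*, but 0 exons of that gene overlap its own, so counting without regard to strand does not mix the exonic reads of this pair. In NT it had 6.38, 8.29 and 6.43 CPM at 0 h, 883, 839 and 925 CPM at 1 h, and 1139, 1248 and 1170 CPM at 2 h. It then had 962, 996 and 1061 CPM at 4 h, 461, 402 and 434 CPM at 8 h, and 387, 361 and 352 CPM at 24 h. The lowest library with IL-1β was thus far above the highest at 0 h, and the values at 24 h lay below all those at 1 h. Its log2 change over 0 h in NT was 6.97 ± 0.085 at 1 h and 7.39 ± 0.085 at 2 h, where the level was 168-fold that at 0 h (adjusted p = 3.46e-27). From 2 to 8 h it fell by 1.45 on the log2 scale (SE 0.059, adjusted p = 2.1e-16). From 8 to 24 h the log2 change was −0.24 ± 0.059 (adjusted p = 0.00156), under the fold threshold.

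*Ccl7* codes for a closely related monocyte attractant and is the neighbour of *Ccl2*. The gene (ENSMUSG00000035373) lies at chr11:82045712-82047525 on the same strand, 8258 bases past the end of *Ccl2*. Between them lie 0 annotated genes as a whole, a count that leaves out genes reaching in from outside. In NT it had 2.41, 2.31 and 2.44 CPM at 0 h, 217, 209 and 217 CPM at 1 h, and 239, 254 and 251 CPM at 2 h. Its values were 319, 321 and 338 CPM at 4 h, 205, 176 and 191 CPM at 8 h, and 185, 175 and 176 CPM at 24 h. *Ccl7* peaked later than *Ccl2*, and its libraries at 8 and 24 h met. Relative to 0 h in NT the log2 change was 6.48 ± 0.076 at 1 h and 7.10 ± 0.075 at 4 h, a 137-fold rise (adjusted p = 1.21e-27). The log2 change from 4 to 8 h was −0.78 ± 0.047 (adjusted p = 7.71e-13), and that from 8 to 24 h was −0.10 ± 0.047 (adjusted p = 0.094). At 24 h *Ccl7* was still 74.7-fold above 0 h, and *Ccl2* 52.0-fold.

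*Ccl20* codes for the ligand of CCR6, a receptor found on B cells, immature dendritic cells and some T helper cells. The gene (ENSMUSG00000026166) has 3 exons on the forward strand at chr1:83116766-83119167. At 0 h it was barely detected, with 6, 4 and 7 counts in the NT libraries and 7, 4 and 7 counts in the IFT88siRNA libraries. In NT its level was 30.9, 26.3 and 34.1 CPM at 1 h, 46.8, 41.6 and 49.4 CPM at 2 h, and 64.6, 65.2 and 74.6 CPM at 4 h. It was down to 20.7, 18.8 and 18.98 CPM at 8 h, and to 9.57, 9.03 and 8.16 CPM at 24 h. The 3 libraries of any 1 of these time points stood apart from those of every other. In NT the log2 change from 0 h was 8.12 ± 0.17 at 4 h (adjusted p = 2.55e-22), 278-fold, and this fold rests on the few counts at 0 h. With limma the log2 change was 6.72 on the log2(TPM + 1) scale and 7.71 with a pseudocount of 0.1. From 4 to 24 h in NT its log2 change was −2.94 ± 0.091 (adjusted p = 6.99e-19), next to −2.35 ± 0.059 for *Cx3cl1* (adjusted p = 1.61e-20), −1.47 ± 0.059 for *Ccl2* (adjusted p = 1.33e-16) and −0.88 ± 0.046 for *Ccl7* (adjusted p = 2.94e-14). The decline of *Ccl20* went on between 8 and 24 h, where the log2 change was −1.13 ± 0.10 (adjusted p = 1.35e-09).

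The RefSeq promoter table (GRCm38.p6) matched *Ccl20* and *Cx3cl1*, 2 of the 5 genes. Both strands of the 250 bases before the RefSeq start were searched for 4 forms of the last 9 letters of the κB motif bound by NFκB (GGANNTTCC, GGANNTCCC, GGGNNTTCC and GGGNNTCCC, which can share a position), for the AP-1 motif TGANTCA and for the interferon-response motif AAANNGAAA. The window of *Ccl20*, at chr1:83116516-83116765 on the forward strand, is shown because it held the only match, a GGGNNTTCC read on the reverse strand from −80 to −72 before the start. The match is in capitals.
Ccl20: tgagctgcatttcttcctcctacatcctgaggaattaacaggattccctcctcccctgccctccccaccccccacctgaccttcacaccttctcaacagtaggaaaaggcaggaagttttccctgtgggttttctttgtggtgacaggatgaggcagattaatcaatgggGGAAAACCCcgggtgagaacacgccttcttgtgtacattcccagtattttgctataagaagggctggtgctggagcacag
A match to at least 1 κB form was found in 14.2% of 32851 promoters of the same length, and a match to GGGNNTTCC in 4.98%. The AP-1 motif was held by 6.75% of the promoters and the interferon-response motif by 9.37%, and neither was found in these windows of *Ccl20* and *Cx3cl1*. The window of *Cx3cl1*, at chr8:94771930-94772179, ends past the start of the GENCODE gene given for it further on, so part of it lies inside that gene, and it held no κB form. These are descriptions of letters in a window and not of bound sites.

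*Ccl5* codes for an attractant of T cells and monocytes. The gene (ENSMUSG00000035042) lies on the reverse strand at chr11:83525778-83530518, in 3 exons. Unlike *Ccl2*, *Ccl7* and *Ccl20* it was already present in medium only, with 44.6, 40.4 and 41.0 CPM in NT. It had 85.1, 78.9 and 90.96 CPM at 1 h, 124, 110 and 123 CPM at 2 h, and 320, 261 and 329 CPM at 4 h. Later values were 363, 323 and 399 CPM at 8 h and 340, 290 and 291 CPM at 24 h. The libraries of 4, 8 and 24 h overlapped one another and lay above all earlier ones. Its log2 change over 0 h in NT was 1.01 ± 0.091 at 1 h, 1.498 ± 0.090 at 2 h, 2.86 ± 0.091 at 4 h and 3.11 ± 0.091 at 8 h, where the level was 8.63-fold that at 0 h (adjusted p = 4.34e-19). The largest step was that from 2 to 4 h, with a log2 change of 1.36 ± 0.084 (adjusted p = 6.42e-13). From 4 to 24 h the change was 0.010 ± 0.080 (adjusted p = 0.921), whereas the other 4 genes fell by over 1.5-fold over this interval, as did 17.6% of all genes. From its highest level at 8 h to 24 h *Ccl5* changed by −0.24 ± 0.080 (adjusted p = 0.017), under the fold threshold, as *Ccl2* did.

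*Cx3cl1* codes for fractalkine, the ligand of CX3CR1. The gene (ENSMUSG00000031778) is on the forward strand at chr8:94772009-94782427, and its longest coding transcript has 3 exons and 3315 bases. It was expressed in medium only, with 402, 409 and 380 CPM in NT at 0 h. Its values were 923, 860 and 1012 CPM at 1 h, 2313, 2119 and 2447 CPM at 2 h, and 2939, 2881 and 2872 CPM at 4 h. By 8 h they were back at 661, 664 and 657 CPM, and at 24 h they were 612, 572 and 530 CPM, still above all 3 libraries at 0 h. Relative to 0 h in NT the log2 change was 1.23 ± 0.058 at 1 h, 2.53 ± 0.060 at 2 h and 2.88 ± 0.061 at 4 h, 7.34-fold (adjusted p = 2.97e-22). From 4 to 8 h the log2 change was −2.14 ± 0.059 (adjusted p = 2.52e-18), compared with −1.22 ± 0.059 for *Ccl2*, −0.78 ± 0.047 for *Ccl7* and −1.81 ± 0.084 for *Ccl20* in the same libraries.

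Levels of different genes can be set side by side only per length, so the deposited TPM values were used for this. At 0 h in NT the order was *Cx3cl1* (235 to 247 TPM), *Ccl5* (217 to 230 TPM), *Ccl2* (18.9 to 25.0 TPM), *Ccl7* (7.12 to 7.36 TPM) and *Ccl20* (0.58 to 1.02 TPM), with no overlap between neighbours. At 1 h *Ccl2* led with 2265 to 2469 TPM, before *Cx3cl1* with 616 to 761 and *Ccl7* with 581 to 598 TPM. At 4 h *Ccl2* still led with 2452 to 2741 TPM, and *Cx3cl1* (1401 to 1428 TPM) and *Ccl5* (1183 to 1415 TPM) could not be ordered, because their libraries overlapped. At 8 h *Ccl5* led with 1611 to 1893 TPM, and it did so at 24 h with 1435 to 1595 TPM. *Ccl20* was the lowest of the 5 in every condition. The order in IFT88siRNA differed at 1 h, where *Ccl7* (603 to 721 TPM) was above *Cx3cl1* (462 to 521 TPM) without overlap. At 8 h in IFT88siRNA the ranges of *Ccl5* (1091 to 1640 TPM) and *Ccl2* (829 to 1098 TPM) met across libraries, but within them *Ccl5* held 40.3% to 44.6% of the summed TPM of the 5 genes and *Ccl2* 28.7% to 30.7%, so *Ccl5* led in each library, as in NT.

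The sum of the 5 TPM values in NT was 492 ± 10.7 at 0 h, 6380 ± 265 at 4 h and 3386 ± 145 at 24 h (SD, n = 3). *Cx3cl1* made up 49.1% ± 0.63 and *Ccl5* 45.0% ± 1.23 of that sum at 0 h. At 1 h *Ccl2* made up 57.7% ± 0.66, and *Cx3cl1* and *Ccl5* were down to 16.8% ± 0.87 and 8.87% ± 0.16. By 24 h *Ccl5* was back to 44.1% ± 0.75, next to 30.6% ± 0.18 for *Ccl2*, whereas *Cx3cl1* was at 9.31% ± 0.35. *Ccl20* never passed 3.15% of the sum in a library. In IFT88siRNA the sum was 418 ± 18.9 at 0 h, 5602 ± 274 at 4 h and 2855 ± 22.5 at 24 h. The shares of *Ccl20* at 1 h were 1.28% ± 0.073 in IFT88siRNA and 2.09% ± 0.17 in NT, and those of *Ccl7* were 19.7% ± 1.13 and 14.5% ± 0.59 (SD, n = 3).

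**Figure D2:**
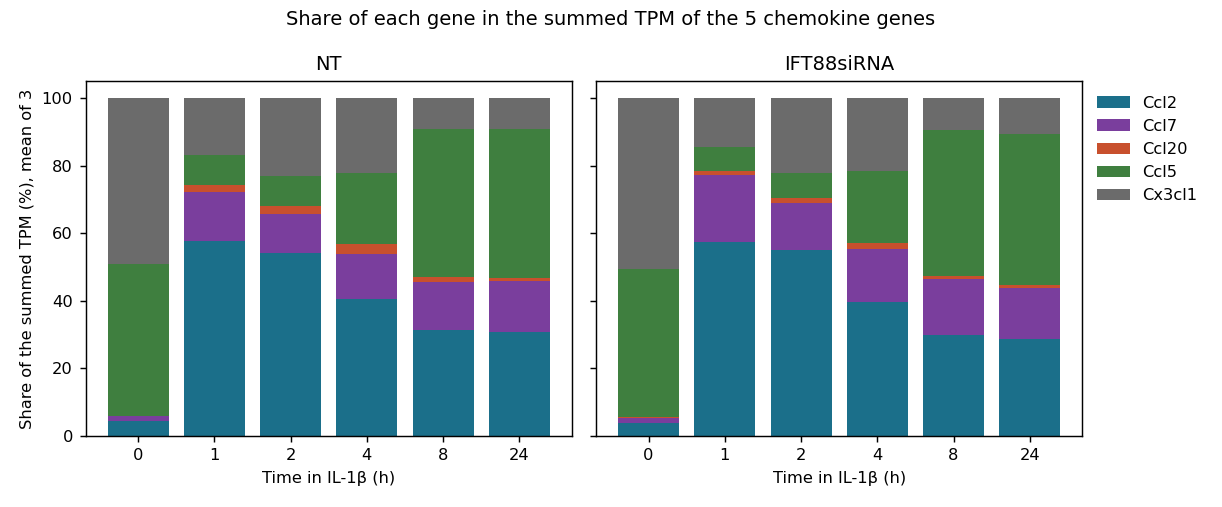
Mean share (%) of each gene in the summed TPM of the 5 genes (n = 3 libraries per bar) against time in IL-1β (h), with NT on the left and IFT88siRNA on the right. Cx3cl1 (49.1%) and Ccl5 (45.0%) fill most of the NT bar at 0 h, Ccl2 takes the largest share at 1, 2 and 4 h, and Ccl5 takes it at 8 and 24 h.

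The next question was whether depletion of *Ift88* altered the level of these transcripts. *Ccl20* was lower in IFT88siRNA than in NT at 1, 2, 4 and 8 h, and *Ccl5* was lower at 1 h. No other gene of the 5 passed both thresholds at a time point. By time point, 0 of the 4 genes tested were lower at 0 h, 2 of 5 at 1 h, 1 of 5 at 2 h, at 4 h and at 8 h, and 0 of 5 at 24 h. Of all genes tested, 1.56% were lower at 0 h, 2.47% at 1 h, 0.462% at 2 h, 0.399% at 4 h, 0.613% at 8 h and 0.598% at 24 h. With the adjusted p-value alone, 3, 5, 2, 2, 3 and 3 of the genes passed at the 6 times in order, where 19.5%, 19%, 2.76%, 3.85%, 4.25% and 8.66% of all genes did in either direction. The median log2 fold change of the genes tested was −0.17, −0.31, −0.20, −0.19, −0.34 and −0.24, while that of all genes was between −0.0029 and 0.0037. With the 6 time points tested together in all 36 libraries, *Ccl20* (adjusted p = 8.55e-14) and *Ccl5* (adjusted p = 6.07e-05) passed both thresholds, as did 5.19% of 16710 genes.

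**Figure D3:**
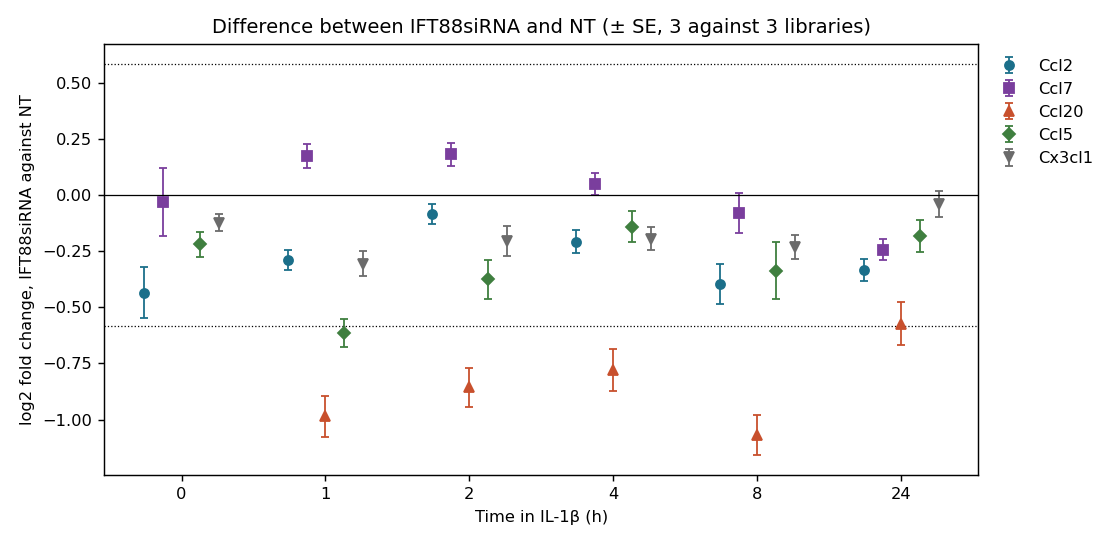
Log2 fold change of each gene in IFT88siRNA against NT (± SE, 3 libraries against 3) at each time in IL-1β (h, evenly spaced), with a line at no difference and dotted lines at 1.5-fold. Ccl20 lies past the lower dotted line from 1 to 8 h and just inside it at 24 h (−0.57), Ccl7 lies above no difference at 1, 2 and 4 h, and Ccl20 at 0 h had too few counts to be tested.

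All 3 IFT88siRNA libraries lay below all 3 NT libraries for 3 of the 5 genes at 0 h, 4 at 1 h, 2 at 2 h and 3 each at 4, 8 and 24 h. Over all 16710 genes, this held for 16.8%, 16.7%, 10.6%, 10.1%, 10.7% and 12.9% at those times.

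*Ccl20* had 16.1, 13.7 and 16.5 CPM in IFT88siRNA at 1 h, 26.3, 22.4 and 27.5 CPM at 2 h, and 32.4, 46.5 and 40.9 CPM at 4 h. It had 10.5, 8.65 and 9.07 CPM at 8 h, and 6.30, 5.83 and 5.95 CPM at 24 h. At each of these 5 times the highest IFT88siRNA library was below the lowest NT library. The level in IFT88siRNA was 50.5% of NT at 1 h (log2 fold change −0.99 ± 0.091, adjusted p = 2.9e-06), 55.2% at 2 h (−0.86 ± 0.086, adjusted p = 0.00059) and 58.3% at 4 h (−0.78 ± 0.092, adjusted p = 0.000136). It was 47.6% of NT at 8 h (−1.07 ± 0.089, adjusted p = 0.000112) and 67.2% at 24 h (−0.57 ± 0.095, adjusted p = 0.00132), the last just under the fold threshold. Tested with limma on log2(TPM + 1), the difference at 4 h did not pass (log2 difference −0.79, adjusted p = 0.113). Without a filter on low TPM values the limma differences at 1, 2 and 4 h were −0.97, −0.87 and −0.79, close in size, but their adjusted p-values (0.0517, 0.0916 and 0.235) did not pass. At 0 h *Ccl20* did not pass the filter on low counts. Without that filter its log2 fold change was −0.18 (adjusted p = 0.891).

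*Ccl5* had 51.2, 54.3 and 61.4 CPM in IFT88siRNA at 1 h, below the 78.9 to 90.96 CPM of the NT libraries. The level was 65.2% of NT, with a log2 fold change of −0.62 ± 0.063 (adjusted p = 7.95e-06). This sits close to the 1.5-fold threshold, and without NT 1 h replicate 3 or without IFT88siRNA 1 h replicate 1 the log2 fold change was −0.56, past the p-value threshold only. With limma on the TPM values without a filter it was −0.59 (adjusted p = 0.0596). At 0 h the IFT88siRNA libraries had 37.5, 36.3 and 34.3 CPM (log2 fold change −0.22 ± 0.055, adjusted p = 0.00668). At 2 h they had 87.3, 81.5 and 107 CPM (−0.38 ± 0.088, adjusted p = 0.0472). From 4 h onwards the groups overlapped, with log2 fold changes of −0.14 ± 0.069, −0.34 ± 0.13 and −0.18 ± 0.072 at 4, 8 and 24 h (adjusted p = 0.296, 0.157 and 0.136).

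*Cx3cl1* had 749, 705 and 820 CPM in IFT88siRNA at 1 h, below the 860 to 1012 CPM of NT (log2 fold change −0.31 ± 0.057, adjusted p = 0.00152). With limma on log2(TPM + 1) this difference was −0.50 (adjusted p = 0.0369). At its peak at 4 h it had 2404, 2778 and 2454 CPM, again below all NT libraries (−0.19 ± 0.053, adjusted p = 0.0504). At 8 h it had 596, 585 and 526 CPM (−0.23 ± 0.053, adjusted p = 0.0354), also below all NT libraries. At 0 h the 3 libraries lay between 363 and 366 CPM, against 380 to 409 CPM in NT (−0.12 ± 0.039, adjusted p = 0.0286). At 2 h and at 24 h the groups overlapped, with log2 fold changes of −0.20 ± 0.068 and −0.041 ± 0.057 (adjusted p = 0.15 and 0.741). None of these differences reached 1.5-fold.

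*Ccl2* had 5.32, 5.03 and 5.29 CPM in IFT88siRNA at 0 h, where all 3 NT libraries were higher (log2 fold change −0.43 ± 0.11, adjusted p = 0.00877). It had 742, 687 and 749 CPM at 1 h (−0.29 ± 0.043, adjusted p = 0.000306). At its peak at 2 h it had 1148, 1095 and 1118 CPM, which overlapped the NT libraries (−0.086 ± 0.046, adjusted p = 0.368). At 4 h it had 843, 928 and 857 CPM (−0.21 ± 0.051, adjusted p = 0.0319). At 8 h it had 389, 293 and 316 CPM (−0.40 ± 0.089, adjusted p = 0.0329), and at 24 h 289, 287 and 299 CPM (−0.33 ± 0.049, adjusted p = 0.000435). The IFT88siRNA libraries were thus below all NT libraries at 0, 1, 4, 8 and 24 h, and each of these differences was smaller than 1.5-fold.

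*Ccl7* did not follow *Ccl2* in this comparison. In IFT88siRNA it had 264, 218 and 245 CPM at 1 h and 294, 261 and 291 CPM at 2 h, and all 6 of these libraries were above those of NT at the same time, as held for 17.2% and 10.2% of all genes at 1 and 2 h. The log2 fold change was 0.17 ± 0.054 at 1 h (adjusted p = 0.0339) and 0.18 ± 0.053 at 2 h (adjusted p = 0.102). At 24 h the direction was the opposite, with 149, 157 and 148 CPM, below all NT libraries (−0.24 ± 0.046, adjusted p = 0.00364). At 0, 4 and 8 h the groups overlapped, with log2 fold changes of −0.031 ± 0.15, 0.048 ± 0.047 and −0.080 ± 0.090 (adjusted p = 0.914, 0.647 and 0.641).

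The relation of the neighbours *Ccl7* and *Ccl2* can also be read within a library, where scaling between libraries plays no part. In NT there were 24.6, 24.9 and 23.4 *Ccl7* counts per 100 *Ccl2* counts at 1 h, and in IFT88siRNA 35.6, 31.8 and 32.7. At 4 h the values were 33.2, 32.3 and 31.8 in NT and 38.5, 38.6 and 39.0 in IFT88siRNA. At 8 h they were 44.5, 43.7 and 44.1 in NT and 54.3, 54.0 and 56.5 in IFT88siRNA. All 3 IFT88siRNA libraries were above all 3 NT libraries at these times, and also at 0 h (44.0 to 45.5 against 27.9 to 37.9) and 2 h (23.8 to 26.0 against 20.4 to 21.4). At 24 h the ranges met, with 49.7 to 54.6 in IFT88siRNA and 47.8 to 50.0 in NT. The ratio was computed after the separate changes of the pair had been seen and is given as a description without a test. In both groups the ratio was lowest at 2 h. At 0 h it rests on 55 to 70 *Ccl7* counts and 143 to 201 *Ccl2* counts per library. How often the ratio of other gene pairs separates the groups in this way was not tested.

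**Figure D4:**
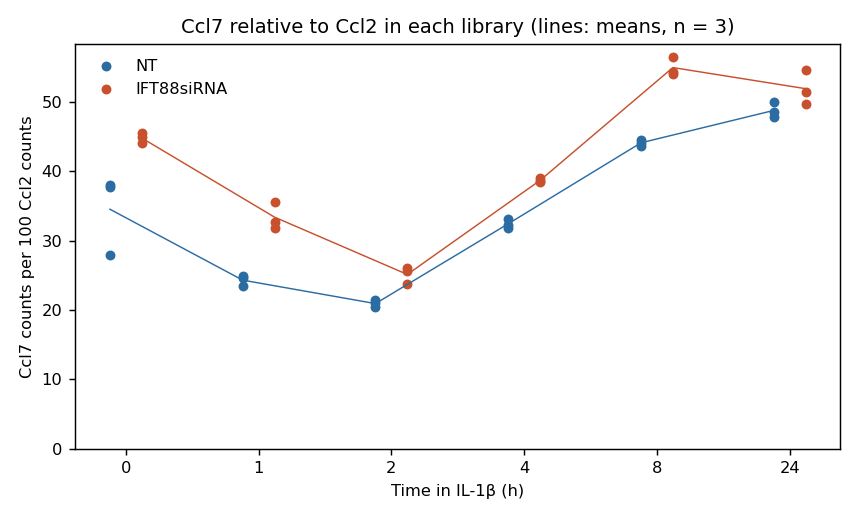
Ccl7 counts per 100 Ccl2 counts in each library against time in IL-1β (h, evenly spaced), with 1 point per library, lines through the means (n = 3), NT in blue and IFT88siRNA in orange. The orange points lie above the blue points at 0, 1, 2, 4 and 8 h, both groups dip to their lowest at 2 h, and the groups overlap at 24 h.

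Whether the change from 0 h differed between the siRNA groups was tested as an interaction in all 36 libraries. At each of the 5 time points 0 of the 5 genes passed the adjusted p-value threshold, and so 0 passed both thresholds. Of all 16710 genes, 0.598% passed both thresholds at 1 h, 0.245% at 2 h, 0.311% at 4 h, 0.275% at 8 h and 0.132% at 24 h. At shares this small, 0 of 5 does not set these genes apart from others. For *Ccl20* the difference in response at 1 h was −0.78 on the log2 scale, with a 95% confidence interval from −2.07 to 0.51 (adjusted p = 0.678). *Ccl20* had 4 to 7 counts in the libraries at 0 h that this difference rests on. With limma on log2(TPM + 1) the difference was −0.87 (adjusted p = 0.00636), and with a pseudocount of 0.1 it was −0.78 (adjusted p = 0.0895). The scales are not alike, because adding 1 shrinks a difference between levels near or under 1 TPM. The siRNA difference of *Ccl20* at 0 h was −0.094 on log2(TPM + 1) without a filter. In the count model of all 36 libraries it was −0.20. For *Ccl5* at 1 h it was −0.39 (interval −0.73 to −0.047, adjusted p = 0.286), for *Ccl2* at 2 h 0.35 (0.059 to 0.65, adjusted p = 0.292), and for *Cx3cl1* at 1 h −0.18 (−0.37 to 0.016, adjusted p = 0.45). With the 5 time points tested together, *Ccl7* had an adjusted p-value of 0.0184 but no difference over 1.5-fold. The other 4 genes had adjusted p-values between 0.234 and 0.481, and 1.2% of all genes passed both thresholds.

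The genes whose profile over the 12 condition means was most like that of each gene were found among 14253 genes by Pearson's r of log2 CPM, as a description only, since the conditions share time points and the genes share libraries. For *Ccl2* the closest was *Ccl7* (r = 0.986), followed by *Arid5a* (0.981), which codes for an RNA-binding protein known to stabilise inflammatory mRNAs, *Ccl20* (0.978), *Cxcl1* (0.974), a neutrophil chemokine, and *Rnd1* (0.971). For *Ccl7* they were *Ccl2*, *Cxcl1* (0.981), *Arid5a* (0.960), *Ccl20* (0.956) and *Zc3h12a* (0.955), which codes for an endoribonuclease that degrades inflammatory mRNAs. For *Ccl20* they were *Arid5a* (0.985), *Ccl2*, *AI839979* (0.974), *Birc3* (0.970) and *Lox* (0.969). *Ccl5* had no other member among its 5 closest, which were *Gm26902* (0.985), the acute-phase gene *Saa3* (0.984), *Tnfrsf9* (0.983), *Slpi* (0.982) and the metallothionein gene *Mt2* (0.978). *Cx3cl1* had none either, and its closest were *Bid* (0.990), *Rnf19b* (0.989), *Pi4k2b* (0.985), *Usp6nl* (0.982) and *Acot9* (0.981). Among the 5 genes themselves, *Ccl5* and *Cx3cl1* were the least alike (r = 0.307).

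Of 19 other CC and XC chemokine genes examined, 8 were tested in the NT time course and 5 of these were higher at 4 h, where 16.3% of all genes were, with a median log2 change of 3.55 over the 8 tested and −0.016 over all genes. The 3 with the largest change among those higher were *Ccl11* (6.47 ± 1.11, at no more than 19 counts in a library), *Ccl4* (6.29 ± 0.69, at no more than 38 counts) and *Ccl9* (4.463 ± 0.155, at 17 to 410 counts). None of the 19 genes passed 36.6 TPM in a library, and *Ccl9* reached 20.7 TPM. In IFT88siRNA against NT, *Ccl9* was lower at 1 h (log2 fold change −0.62 ± 0.11, adjusted p = 0.00147), and 0 of the others tested passed both thresholds at any time point.

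Transcripts of the receptors were scarce. Of 15 receptor genes, *Ccr2*, the receptor gene for *Ccl2*, had 0 counts in all 36 libraries, *Ccr6*, that for *Ccl20*, had at most 1 count, and *Cx3cr1*, that for *Cx3cl1*, at most 3 counts. *Ccrl2*, which codes for an atypical receptor that binds the chemoattractant chemerin, was the exception at 12 to 449 counts. It was higher with IL-1β in NT at 4 h (log2 change 4.60 ± 0.15, adjusted p = 1.11e-18), and lower in IFT88siRNA than in NT at 1 h (−0.97 ± 0.17, adjusted p = 0.00111) and 2 h (−0.80 ± 0.17, adjusted p = 0.0353). *Ackr2*, which codes for a decoy receptor that takes up CC chemokines, was lower at 4 h in NT (−2.28 ± 0.59, adjusted p = 0.00182), at no more than 13 counts in a library. Of the 4 receptor genes tested in the NT time course, 1 was thus higher and 1 lower at 4 h, and their median log2 change was −0.78. Of all genes, 12.4% were lower.

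Of 8 genes for proteases that shed or trim chemokines and for their regulators, 7 were tested and 3 were higher at 4 h in NT, where 16.3% of all genes were. The median log2 change of the 7 was 0.56. These were *Timp3*, an inhibitor of the fractalkine sheddase ADAM17 (log2 change 1.38 ± 0.048), and *Rhbdf2* (0.64 ± 0.086) and *Rhbdf1* (0.60 ± 0.094), which code for iRhoms that carry ADAM17 to the cell surface. The sheddase gene *Adam10* had 68.9 to 134 TPM and *Adam17* 31.9 to 48.0 TPM, while *Dpp4*, which codes for a peptidase that trims *Ccl5* protein, had at most 3 counts. In IFT88siRNA against NT, 0 of the 7 passed both thresholds at any of the 6 time points, with medians between −0.12 and 0.068. Of all genes tested, 0.399% at 4 h to 2.47% at 1 h were lower by these thresholds. Under the fold threshold, the log2 fold changes at 1 h were −0.47 for *Rhbdf1* (edgeR, adjusted p = 0.000156), −0.27 for *Rhbdf2* (adjusted p = 0.0107) and −0.12 for *Timp3* (adjusted p = 0.0529).

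Of 16 genes from the IL-1 receptor to NFκB, 10 were higher at 4 h in NT, against 16.3% of all genes, with a median log2 change of 1.27 over the list and −0.016 over all genes, led by the feedback inhibitor *Nfkbia* (2.60 ± 0.044) and the subunit genes *Nfkb1* (2.53 ± 0.045) and *Relb* (2.23 ± 0.075). In IFT88siRNA against NT, 0 of the 16 passed both thresholds at any of the 6 time points, with medians between −0.12 and 0.013. Of all genes tested, 0.399% at 4 h to 2.47% at 1 h were lower by these thresholds. Differences under the fold threshold were present at 1 h. The log2 fold changes there were −0.47 for *Relb* (edgeR, adjusted p = 0.000156), −0.23 for *Nfkbia* (adjusted p = 0.000518) and −0.024 for *Nfkb1* (adjusted p = 0.733). Of 9 interferon regulatory genes, 7 were higher at 4 h in NT, again against 16.3% of all genes, with a median of 1.63, among them *Ifnb1* (2.88 ± 0.56) and *Stat2* (2.096 ± 0.125). *Ifnb1*, which codes for interferon-β and had at most 104 counts in a library, was lower in IFT88siRNA at 1 h (−0.64 ± 0.16, adjusted p = 0.0126), and 0 of the other genes of this list passed both thresholds at any time point.

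Markers of the labelled cell type also differed with the siRNA. The times were in part those of *Ccl20* and *Ccl5*, and in part 0 and 24 h, where neither of these genes passed. *Col2a1*, for cartilage collagen, was lower in IFT88siRNA at 0, 1, 2 and 4 h (log2 fold changes −0.77, −0.68, −0.62 and −0.59), *Sox9* and *Comp* were higher at 0 h (0.61 and 0.60) and 24 h (0.74 and 0.87), and *Prg4* was lower at 8 h (−0.65). The summed TPM of the 6 chondrocyte markers was 28.5 to 32.8 in NT and 35.7 to 37.5 in IFT88siRNA at 0 h, and 15.8 to 17.7 and 22.4 to 23.5 at 24 h, without overlap at either time. It was 33.3 to 35.4 in NT and 31.4 to 33.8 in IFT88siRNA at 1 h, 53.8 to 58.3 and 50.4 to 53.4 at 2 h, 32.4 to 34.3 and 34.5 to 35.4 at 4 h, and 32.8 to 38.1 and 36.9 to 38.9 at 8 h. Their part in the differences of the chemokine genes was not tested. Of the other markers, the fibroblast gene *Col3a1* (0.71) and the leukocyte gene *Lyz2* (0.64, at 14 to 74 counts) were higher in IFT88siRNA at 0 h, and 0 of the fibroblast, leukocyte, endothelial and epithelial markers tested passed both thresholds from 1 to 24 h.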

How the data were processed

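Poly(A) RNA of 36 libraries, 3 for each of 6 time points in NT and IFT88siRNA, was analysed from the processed tables. The authors aligned the reads to GRCm38 with HISAT2 2.1.0 and the Ensembl annotation, and deposited unnormalised counts per gene from featureCounts (Subread 1.6.3), whose default settings do not use strand. The authors also deposited TPM per gene from Salmon 0.9.1 with GC correction. The labels give the siRNA at 50 nM and the study's methods give another concentration.

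Groups came from the labels. In R 4.3.3, counts were scaled with TMM, filtered with filterByExpr and tested with the two-sided quasi-likelihood F-test of edgeR 4.0.16, as 3 libraries against 3 for the siRNA, 18 libraries for time and 36 libraries for the response and joint tests. A gene passed with a Benjamini-Hochberg adjusted p-value under 0.05 over all genes tested and a fold change over 1.5. The SE is the absolute log2 fold change over the square root of F. Depth was 19337022 to 38304127 counts, and the precision it gives covers counting error only, without molecular identifiers. Replicates differed by more than counting error, with a chi-square per degree of freedom of 1.71 to 10.9. The steps were tested on simulated data.

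The genes, lists and motifs were chosen with earlier results of these data known. Named from each list were the 3 largest changes among the genes that passed at 4 h in NT, the 3 largest among those that passed with the siRNA, and defining markers near 0, and the 5 closest profiles were named for each gene (at least 1 CPM in a condition). Others were named to complete small counts, and some items are not reported here. Positions came from GENCODE M21 (GRCm38) and promoters from RefSeq (GRCm38.p6). Alternatives were DESeq2 1.42.0, its size factors in edgeR, no low-count filter, no fold threshold, the replicate number as a block, 1 model of 36 libraries, limma 3.58.1 on log2(TPM + 1) (at least 1 TPM in 3 libraries), a pseudocount of 0.1, no TPM filter, and leaving out each library. Figures were drawn with matplotlib 3.10.9.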

Additional observations from a re-analysis of the deposited data

Results flagged for a closer look

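With the 5 time points tested together, *Ccl7* differed between the siRNA groups in its change from 0 h (edgeR, adjusted p = 0.0184). It passed by the adjusted p-value only, since its largest difference was 1.16-fold, and no single time point passed. Of all genes, 1.2% passed both thresholds in this joint test. The share past the adjusted p-value alone is not given here, so how common such a pass is was not tested. The difference, IFT88siRNA minus NT, was 0.21 at 1 h, 0.21 at 2 h, 0.086 at 4 h, −0.034 at 8 h and −0.21 at 24 h on the log2 scale. The 3 IFT88siRNA libraries were above all NT libraries at 1 and 2 h and below all of them at 24 h. The adjusted p-value was between 0.000899 and 0.0545 when each of the 36 libraries was left out in turn. It was above 0.05 without NT 24 h replicate 1 (0.0545), without IFT88siRNA 24 h replicate 1 (0.0515) and without IFT88siRNA 24 h replicate 3 (0.0509). Over the other alternatives it lay between 2.68e-08, without a filter on low counts, and 0.0824, for limma on the TPM values without a filter.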

How the results depend on the processing

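The number of the 5 genes past both thresholds changed by over 1.5 times in these cases. Without a fold threshold it was 3, 5, 2, 2, 3 and 3 for IFT88siRNA against NT at 0, 1, 2, 4, 8 and 24 h, 5 for the 6 times together and 1 for the joint response. By that rule 2.76% (2 h) to 19.5% (0 h) of all genes passed at the single times. For the joint tests only the shares past both thresholds are given here (5.19% and 1.2%), so the 5 and the 1 have no matching share. Without the low-count filter it was 1 for the 6 times together. There the largest log2 difference of *Ccl5* was 0.57 in size, under the fold threshold, next to −0.61 as reported. With limma on log2(TPM + 1) it was 0 for the siRNA at 4 h and 1 (*Ccl20*) for the response at 1, 2, 4 and 8 h and jointly. With a pseudocount of 0.1 it was 0 for the siRNA at 4 h, and without the TPM filter 0 at 1, 2 and 4 h and 1 for the response at 1 h, at 8 h and jointly. Leaving out each library gave 1 to 2 for the siRNA at 1 h, 0 to 1 at 24 h and 1 to 2 for the 6 times together. The single gene at 24 h was *Ccl20*, with −0.63 without NT 24 h replicate 3 and −0.60 without IFT88siRNA 24 h replicate 1. The cause of the changes with limma and without the filters was not tested.

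Changes of sign were limited to differences that did not pass in either form. With limma the *Cx3cl1* response at 2 h was 0.014 with a pseudocount of 1, with and without the filter, and 0.015 with 0.1. Leaving out each library gave −0.19 to 0.016 for *Ccl7* with siRNA at 8 h and −0.083 to 0.013 for *Cx3cl1* at 24 h. For the difference in response it gave −0.082 to 0.14 at 8 h and −0.033 to 0.17 at 24 h for *Ccl2*, −0.015 to 0.15 at 4 h, −0.26 to 0.045 at 8 h and −0.047 to 0.12 at 24 h for *Ccl5*, and −0.15 to 0.060 at 8 h for *Ccl7*.

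With the replicate number as a block, no gene of the 5 gained or lost a call in the 23 comparisons, and *Ccl20* at 1 h had a log2 fold change of −0.98 (edgeR, adjusted p = 1.75e-12). Of same-numbered libraries, 2 of 18 siRNA pairs and 12 of 90 time pairs had deviations correlated over 0.1. The correlations were −0.133 to 0.223 for the siRNA pairs and −0.208 to 0.404 for the time pairs. The highest was between 4 and 8 h in replicate 3 of IFT88siRNA. Most numbers thus did not pair the libraries, and whether some of them shared a day or batch was not tested. Depth limits *Ccl20* at 0 h, at 4 to 7 counts.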

Other observations

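*Ccl24*, the gene of an eosinophil-attracting CC chemokine, differed between the deposited measures. It had at most 1 count in any of the 36 libraries, whereas its TPM value was between 0.134 and 1.30. The counts were used here, and the source of the difference was not tested.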
